A study of Mus musculus with 168 samples.

Results

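The arrays described here compare spleen dendritic cells (DC) of mice given the compound SB00526222 for a prolonged course with those of mice given vehicle. Arrays were chosen by the labels for compound, number of treatments, tissue and cell type, which gave 4 SB00526222 arrays and 6 vehicle arrays, 10 of the 168 arrays in the series. The series, on blockade of Janus kinases (JAK) in mice, profiled sorted immune cells on Affymetrix Mouse Gene 1.0 ST arrays. All mice were male C57BL/6, 6 weeks old, and were dosed by gavage with vehicle or a compound that the design text calls a JAK inhibitor; the labels name neither its dose nor the JAK it blocks. The vehicle was the one labelled Veh 0.5 % MC. SB00526222 mice had 14 treatments, and cells were taken 14 h after the last one for 1 array of experiment J2 (the prefix of the array title) and 15 h after it for 3 arrays of experiment J3. Vehicle mice had 14 treatments in J2 (2 arrays, 14 h) and J3 (1 array, 15 h) and 15 treatments in J6 (3 arrays, 15 h). J6 held no SB00526222 array, so the groups meet only in J2, with 1 array against 2, and in J3, with 3 against 1. The other prolonged DC arrays (5 with SB00526221, 1 with SB00526226 and 2 with SB00526228) entered the fit to share its estimate of spread, and the 2 DC arrays with 3 treatments were left out.

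Cytokines such as interferons, granulocyte-macrophage colony-stimulating factor and FLT3 ligand shape DC; interferons and the colony-stimulating factor signal through JAK kinases to STAT transcription factors, while FLT3 is itself a kinase. STAT2 and IRF9 take part in driving the interferon-stimulated genes, many of which encode antiviral proteins, while SOCS proteins are induced by STATs and dampen the same receptors. Spleen DC comprise cDC1, which cross-present antigen and carry XCR1, CLEC9A and CD8α, cDC2, which carry SIRPα, and plasmacytoid DC, which carry Siglec-H and can release large amounts of type I interferon.

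The labels give FLT3+ as the phenotype, the design text says that cells were sorted and the separation label reads dissection/trimming. The RNA carried the DC markers on every array. Over the 10 arrays the log2 intensity of Flt3 ran from 11.17 to 11.93, that of the integrin Itgax from 11.99 to 12.81 and that of the invariant chain Cd74 from 13.38 to 13.73. Markers of cDC1, cDC2 and plasmacytoid DC lay above the array median on all 10 arrays, so RNA of all 3 subsets was present. The B-cell gene Cd79a, the T-cell genes Cd3d and Cd3g, the NK-cell genes Ncr1, Klrb1c and Eomes and the neutrophil gene Ly6g lay below the array median on all 10. The red pulp macrophage markers Vcam1, Spic and Adgre1 and the B-cell gene Ms4a1 lay above it on all 10, the T-cell gene Cd3e on 8 and the neutrophil gene S100a9 on 4. The NK-cell, T-cell, neutrophil and B-cell lists held 12 genes each, of which 12, 9, 12 and 11 had a probe set with 1 gene symbol. Of these, 9, 5, 5 and 3 lay below the array median on all 10 arrays. Fewer cells of a type and less RNA per cell cannot be told apart in such bulk samples.

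An array of each group stood apart from the rest. The median correlation with the other DC arrays was 0.931 for SB00526222 replicate 3 (J3) and 0.909 for vehicle replicate 6 (J6), against 0.945 to 0.973 for the other 16. SB00526222 replicate 3 had Hspa1a, an inducible heat shock chaperone, at 10.30, against 7.05 to 8.23 on the other 9 arrays. Results without these arrays are given beside those with them, or with the effects of the processing.

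**Figure D1:**
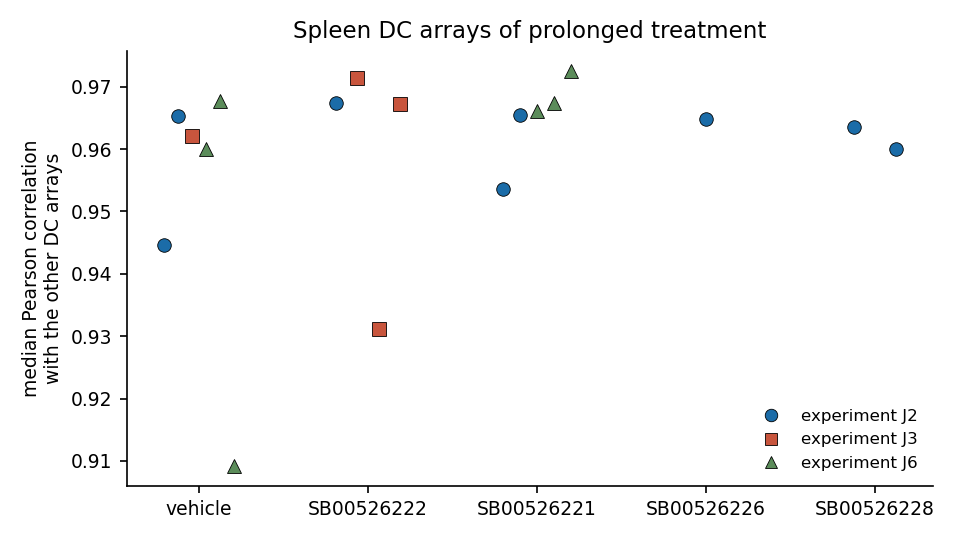
Median Pearson correlation of each prolonged spleen DC array with the other 17, over the 10784 genes tested (y axis), by treatment group (x axis); symbols mark the experiment. SB00526222 replicate 3 at 0.931 and vehicle replicate 6 at 0.909 lie below all other arrays.

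No gene passed the test between SB00526222 and vehicle. Of 10784 genes, 0 (0%) had a limma adjusted p under 0.05, and the lowest adjusted p was 0.9999. At an unadjusted p under 0.05 there were 93 genes, 69 with higher values (0.64%) and 24 with lower values (0.223%), where a uniform spread of p-values would give 539.2. The median 95% interval reached 0.40 on the log2 scale to either side of its estimate. The median difference over all genes was 0.05. Leaving out SB00526222 replicate 1, the only SB00526222 array of J2, still gave 0 calls but raised the number of genes at an unadjusted p under 0.05 to 536, with a lowest limma adjusted p of 0.336. That number was 186 without vehicle replicate 1, 149 without vehicle replicate 3 and 179 without both arrays that stood apart. Replicates are numbered in accession order, SB00526222 replicate 1 and vehicle replicates 1 and 2 being those of J2. With experiment as a term, the fit without SB00526222 replicate 1 rests on J3, with 3 SB00526222 arrays and 1 vehicle array. The fit without vehicle replicate 3 rests on the 1 SB00526222 array of J2. Values from these fits therefore largely repeat those within J3 and within J2. Unless said otherwise, differences below are fitted log2 differences, SB00526222 minus vehicle, with experiment as a term, SE is the standard error of the fit, and none of them passed the adjusted threshold.

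Interferon-stimulated genes ran slightly low. Of 43 tested members of a list of 52, 36 had a difference below 0, against 3932 of the 10784 genes tested. In both J2 and J3, 27 were lower, against 12% of all genes tested. The list's median was -0.12 (within J2 -0.20, within J3 -0.21), against 0.05 over all genes. It was -0.08 without the 2 arrays that stood apart. SB00526222 replicate 3 had the lowest list mean of the 10 arrays, 8.77 against 9.15 to 9.18 on the other 3 SB00526222 arrays and 8.95 to 9.52 on the vehicle arrays. Within J2 the list mean was 9.18 on the SB00526222 array, against 9.52 on vehicle replicate 1 and 9.21 on vehicle replicate 2. Within J3 the SB00526222 arrays other than replicate 3 had 9.16 and 9.15, against 9.21 on the vehicle array. In both experiments the lower list mean thus rested largely on 1 array, vehicle replicate 1 in J2 and SB00526222 replicate 3 in J3. Only Rtp4 and Zbp1 had an unadjusted p under 0.05.

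Rtp4, an interferon-induced receptor transporter protein, read 8.868, 9.046, 8.7303 and 8.905 on SB00526222 replicates 1 to 4, and the vehicle arrays ran from 9.056 to 9.723 (median 9.308). All 4 SB00526222 arrays lay under all 6 vehicle arrays, as for 4 of the 10784 genes tested (0.0371%). The difference was -0.48 (SE 0.22, 95% interval -0.93 to -0.02).

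Zbp1, a sensor of Z-form nucleic acids, read 8.546, 8.651, 8.384 and 8.684 with SB00526222 and 8.629 to 9.159 (median 8.928) with vehicle. The groups overlapped, with vehicle arrays of J2 and J6 among the SB00526222 values. The difference was -0.45 (SE 0.17, 95% interval -0.80 to -0.09).

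Ifit2, which binds RNA and restrains viral translation, read 7.43, 7.81, 6.80 and 7.24 with SB00526222 and 7.17 to 8.44 (median 7.52) with vehicle. The highest values were on the 2 vehicle arrays of J2 and on SB00526222 replicate 2, so the groups overlapped. The difference was -0.47 (SE 0.24).

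Oasl2, of the oligoadenylate synthetase-like family, read 9.49, 9.03, 8.86 and 9.25 with SB00526222 and 9.32 to 10.14 (median 9.44) with vehicle, with a difference of -0.38 (SE 0.19). Its highest value belonged to vehicle replicate 1, which was also the highest array for Ifit1 (9.85) and Ifit3 (10.23). Irf7, the transcription factor that amplifies type I interferon, had a difference of -0.39 (SE 0.37), with SB00526222 replicate 3 at 8.08 and the other 3 at 9.41 to 9.58. Without the 2 arrays that stood apart, the Irf7 difference was -0.22. Ifi27l2a, an interferon-induced mitochondrial protein, differed by -0.37 (SE 0.21), and its groups overlapped, the J2 arrays of both being lower than all J3 and J6 arrays.

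**Figure D2:**
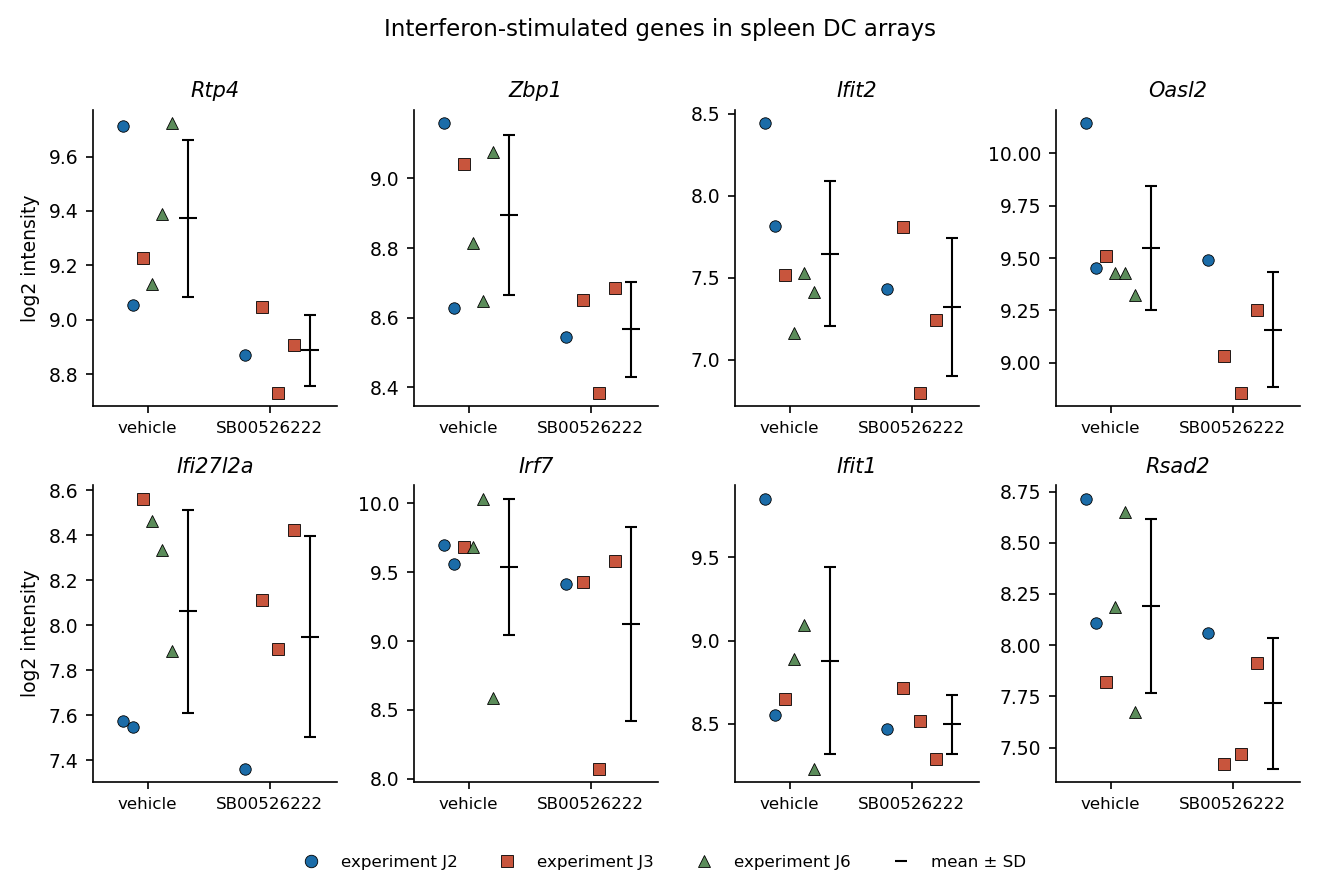
Log2 intensity (y axis) of 8 interferon-stimulated genes on the 6 vehicle and 4 SB00526222 arrays (x axis), each symbol 1 array by experiment, with group mean ± SD to the right. The groups are apart for Rtp4 and overlap for the other 7.

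Promoters of interferon-stimulated genes carry the interferon-stimulated response element, to which STAT2 and IRF9 are recruited. Its core was searched as GAAANNGAAA on both strands (TTTCNNTTTC on the other) in RefSeq promoter windows of the GRCm38.p6 build, from 250 bases before to 50 bases after each start. It was found in 3.44% of all 32851 windows, in 3.72% of the 8680 tested genes with a window and in 16 of the 33 tested list members with a window. The windows of Ifit2, Oasl2 and Irf7 held no such core. Rtp4, Zbp1 and Ifi27l2a had no window and could not be searched. The 6 list members with the lowest differences among those that had the core before their start are shown, chosen after their values were seen, in 30-base stretches with the core in capitals, 5′ to 3′ on the gene's strand.
Ifit1: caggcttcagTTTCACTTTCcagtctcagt
Ifit1: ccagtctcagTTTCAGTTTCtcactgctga
Ifit3: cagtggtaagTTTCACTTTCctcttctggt
Ifit3: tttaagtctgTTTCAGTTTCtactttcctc
Slfn5: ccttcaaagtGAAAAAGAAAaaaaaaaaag
Rsad2: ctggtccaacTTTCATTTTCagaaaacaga
Oas3: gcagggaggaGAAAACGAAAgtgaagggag
Oas1a: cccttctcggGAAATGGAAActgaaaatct

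The stretches lie at chr19:34640775-34640804 (plus strand) for Ifit1, chr19:34640794-34640823 (plus strand) for Ifit1, chr19:34583363-34583392 (plus strand) for Ifit3, chr19:34583397-34583426 (plus strand) for Ifit3, chr11:82951937-82951966 (plus strand) for Slfn5, chr12:26456553-26456582 (minus strand) for Rsad2, chr5:120777715-120777744 (minus strand) for Oas3, chr5:120907526-120907555 (minus strand) for Oas1a. Ifit1 carries 2 cores, 94 and 75 bases before its start, and Ifit3 2 cores, 146 and 112 bases before its start; both genes read highest on vehicle replicate 1. The differences were -0.36 (SE 0.28) for Ifit1, -0.34 (SE 0.32) for Ifit3, -0.26 (SE 0.24) for Rsad2, which encodes viperin, and -0.29 (SE 0.23) for Slfn5. Those of the oligoadenylate synthetases were -0.22 (SE 0.17) for Oas3 and -0.21 (SE 0.25) for Oas1a, the latter 0.24 within J2 and -0.63 within J3. List members with the core had a median difference of -0.13 (16 genes) and those without it -0.12 (17 genes). The 307 genes outside the list whose window held the core had a median of 0.04, against 0.05 for the 8357 genes without it. A match of letters does not show binding. The core bound by STAT dimers, TTCNNNGAA, which can overlap the other core, was in 8.3% of windows, and the 701 tested genes with it had a median of 0.06, against 0.05 for the other 7979.

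The kinases and their feedback genes had fitted differences near 0. Jak1 differed by -0.06 (95% interval -0.47 to 0.35), Jak2 by 0.00 (-0.37 to 0.38) and Tyk2 by 0.16 (-0.40 to 0.73). All 3 were above 0 within J2 and below 0 within J3. Of the SOCS feedback inhibitors, Socs1 differed by -0.06 (-0.43 to 0.30), Socs2 by -0.08 (-0.74 to 0.58) and Socs3 by 0.04 (-0.42 to 0.51). In the list of STAT5 and feedback targets, 5 of 13 tested genes were above 0 and 8 below, with a median of -0.06.

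Among survival genes, Pim2, a serine/threonine kinase induced by cytokines, read 7.69, 7.76, 8.10 and 7.97 with SB00526222 and 7.18 to 8.07 (median 7.90) with vehicle. Its arrays overlapped; the difference was 0.41 (SE 0.17), 0.01 within J2 and 0.76 within J3. Its relative Pim1 differed by -0.16 (SE 0.26), the anti-apoptotic Bcl2 by 0.35 (SE 0.18) and the STAT3 inhibitor Pias3 by 0.38 (SE 0.23). Without vehicle replicate 3, Pim2 was 0.05, Bcl2 0.18 and Pias3 0.09; without SB00526222 replicate 1, Pim2 was 0.76 and Pias3 0.67. The JAK and STAT components as a list (15 tested) had a median of 0.09, and the cytokine receptors (23 tested) 0.12; their members Il13ra1 and Csf2rb differed by 0.27 (SE 0.20) and 0.18 (SE 0.23). The interferon-gamma-induced GTPases and partners (11 tested) had a median of -0.01: -0.21 in J2 and 0.12 in J3. Irgm1, a GTPase of vacuole defence, differed by -0.27 (SE 0.16), Gbp9 by -0.28 (SE 0.27) and the class II transactivator Ciita by 0.25 (SE 0.37).

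The DC identity and subset lists had fitted medians from 0.06 to 0.22, and all 4 had medians of opposite sign in J2 and J3; the difference between the experiments was not tested. Flt3 differed by -0.02 (95% interval -0.45 to 0.41), Zbtb46, the transcription factor of conventional DC, by 0.05 (-0.77 to 0.87) and Itgax by 0.20 (-0.25 to 0.65). The list shared by conventional DC (14 tested) had a median of 0.06, 0.19 within J2 and -0.17 within J3. Without the 2 arrays that stood apart, Flt3 was 0.03 and Zbtb46 0.21. The cDC1 list (19 tested) had a median of 0.13, made of -0.17 within J2 and 0.50 within J3. The plasmacytoid list (17 tested) had 0.22, made of -0.10 and 0.45. Without vehicle replicate 3, the only vehicle array of J3, these medians were -0.15 and -0.13. Their sign turned to that within J2, since this fit rests on the 1 SB00526222 array of J2.

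Cd8a, which marks spleen cDC1, read 10.03, 10.49, 10.84 and 10.67 with SB00526222 and 9.34 to 10.64 (median 10.46) with vehicle. The lowest vehicle value was that of J3, and the lowest SB00526222 value that of J2. The difference was 0.57 (SE 0.26), -0.18 within J2 and 1.32 within J3, and -0.19 without vehicle replicate 3. The chemokine receptor Xcr1 read 10.87, 11.19, 11.06 and 11.34 with SB00526222 and 10.36 to 11.69 (median 10.99) with vehicle, a difference of 0.19 (SE 0.25). Its J2 and J3 values were -0.44 and 0.84, and the fit without vehicle replicate 3 gave -0.47. Clec9a, which recognises dead cells, differed by 0.30 (SE 0.22) and the cDC1 transcription factor Batf3 by -0.29 (SE 0.20), the latter below 0 in both experiments.

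Siglech of plasmacytoid DC read 8.57, 10.31, 10.85 and 9.92 with SB00526222 and 9.09 to 10.61 (median 9.43) with vehicle, the lowest on the J2 SB00526222 array. The difference was 0.23 (SE 0.43), -0.86 within J2 and 1.27 within J3, and -0.81 without vehicle replicate 3. Ccr9 differed by 0.58 (SE 0.45) and Klra17, a lectin receptor in the plasmacytoid list, by 0.74 (SE 0.42), which was -0.14 in J2. Without vehicle replicate 3 they were 0.22 and -0.22, and without SB00526222 replicate 1 they were 0.94 and 1.68. Without the 2 arrays that stood apart, Siglech was 0.01 and Klra17 0.48. For cDC2, the list (19 tested) had a median of 0.10, 0.20 within J2 and -0.09 within J3. Sirpa differed by -0.05 (SE 0.26) and Clec4a4, an inhibitory lectin, by 0.34 (SE 0.19).

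**Figure D3:**
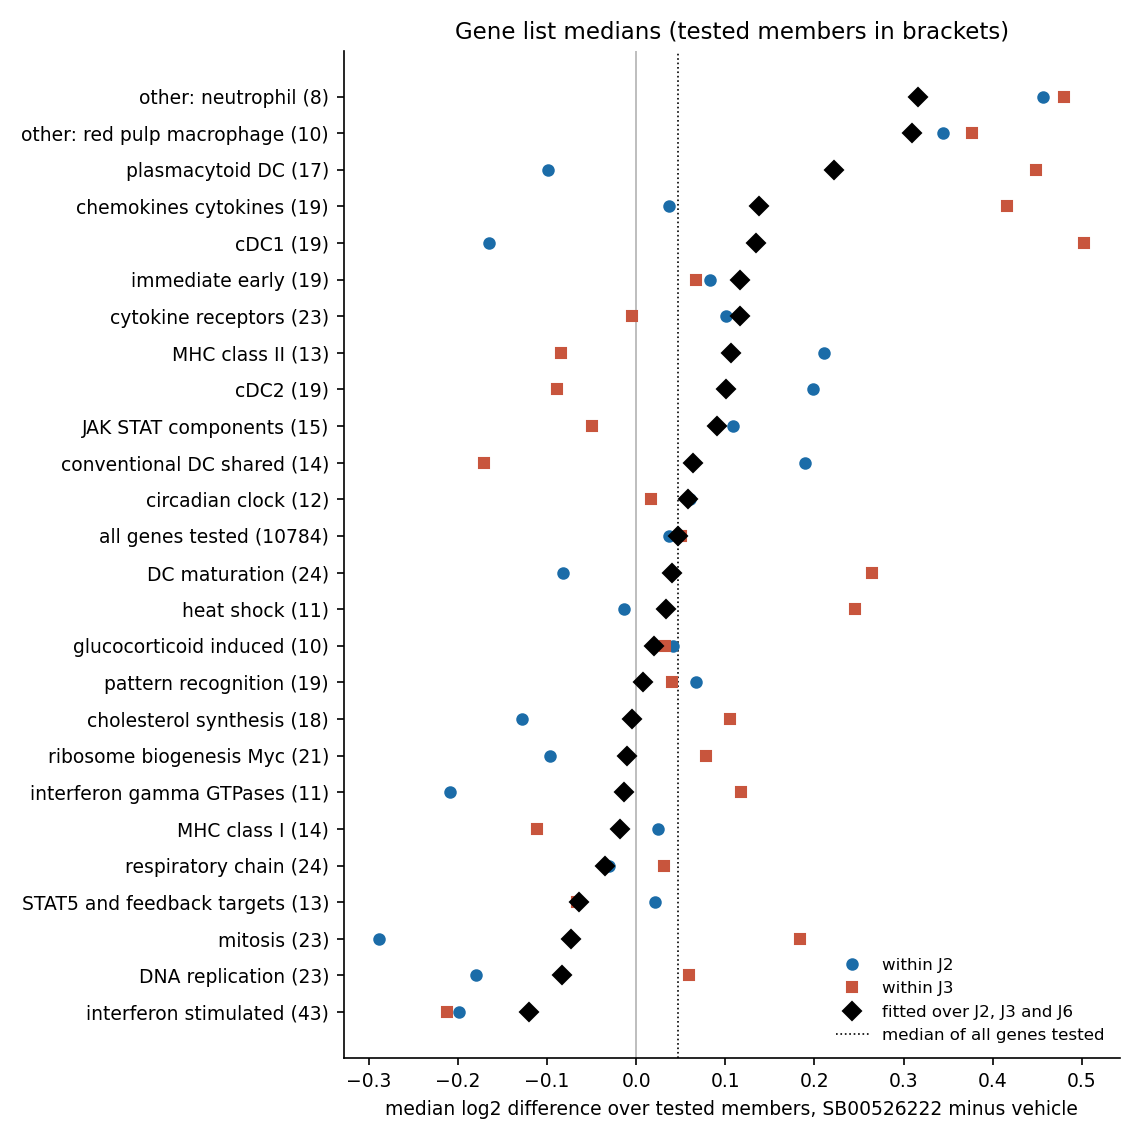
Median log2 difference, SB00526222 minus vehicle, over the tested members of each list with at least 8 tested members and over all genes (x axis), with list names and tested members on the y axis. Diamonds are fitted values, circles and squares plain differences within J2 and J3. The interferon-stimulated list is lowest in the fit at -0.12, and the neutrophil and red pulp macrophage lists are highest at 0.32 and 0.31.

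The antigen presentation lists had medians of 0.11 for class II and -0.02 for class I, against 0.05 over all genes. H2-Aa, the class II alpha chain, differed by 0.06 (95% interval -0.34 to 0.45) and Cd74 by 0.06 (-0.21 to 0.34). The thiol reductase Ifi30 differed by 0.25 (SE 0.14). The class II list had 11 of 13 tested members above 0, against 6852 of the 10784 genes tested. In both J2 and J3, 5 were higher, against 26.1% of all genes. The list's median was 0.11, 0.21 within J2 and -0.08 within J3. That of the class I list (14 tested) was -0.02, with the immunoproteasome subunit Psmb9 at -0.23 (SE 0.21) and the peptide transporter subunit Tap2 at -0.20 (SE 0.17). The maturation list (24 tested) had a median of 0.04; Ccr7, which guides DC to T-cell zones, differed by 0.22 (SE 0.29) and Pdcd1lg2, encoding PD-L2, by 0.33 (SE 0.21).

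Chemokines and cytokines (19 tested) had a median of 0.14. Cxcl9, induced by interferon-gamma, was -0.51 in J2 and 0.97 in J3, with a fitted difference of 0.23 (SE 0.32). Ccl3 differed by -0.28 (SE 0.24) and the costimulatory ligand Tnfsf9 by 0.35 (SE 0.22). Proliferation genes were below 0 for most members: 17 of 23 mitosis genes and 18 of 23 replication genes, against 3932 of the 10784 genes tested. Those lower in both J2 and J3 numbered 7 and 5, against 12% of all genes. Their medians were -0.07 and -0.08, but 0.18 and 0.06 within J3. Cdk1, the mitotic kinase, differed by -0.33 (SE 0.24), Mki67 by -0.19 (SE 0.25) and Rrm2, a ribonucleotide reductase subunit, by -0.32 (SE 0.29). The medians of the lists for respiratory chain, cholesterol synthesis, ribosome biogenesis, circadian clock and glucocorticoid-induced genes lay between -0.03 and 0.06. Named members of these and the immediate early list were Nsdhl, of cholesterol synthesis, at 0.37 (SE 0.19), the clock repressor Nr1d1 at -0.15 (SE 0.17), the metallothionein Mt2 at 0.39 (SE 0.20) and the stress factor Atf3 at -0.29 (SE 0.16). The heat shock, immediate early and pattern recognition lists had medians of 0.03, 0.12 and 0.01. Hspa1a differed by 0.77 (SE 0.57), and by 0.32 without the 2 arrays that stood apart.

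Genes of red pulp macrophages, the splenic cells that clear old red cells, ran high. Of 13 listed genes 10 were tested, and 9 were above 0, against 6852 of the 10784 genes tested. In both J2 and J3, 8 were higher, against 26.1% of all genes. The list median was 0.31 (J2 0.34, J3 0.38), and 0.28 without the 2 arrays that stood apart. The summed intensity of the list ran from 4154 to 5056 on the vehicle arrays and from 5034 to 6218 on the SB00526222 arrays. Spic, the factor that defines these macrophages, differed by 0.22 (SE 0.18). The part of macrophages in the results below was not tested.

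Vcam1, an adhesion molecule, read 8.16, 8.16, 8.45 and 7.81 with SB00526222 and 7.10 to 8.17 (median 7.74) with vehicle. The 3 vehicle arrays of J2 and J3 lay under all SB00526222 arrays, and the J6 vehicle arrays among them. The difference was 0.75 (SE 0.22, 95% interval 0.28 to 1.22), 0.44 with no experiment term and 0.45 without vehicle replicate 3.

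Hmox1, the heme oxygenase that degrades heme, read 8.659, 8.637, 10.159 and 8.919 with SB00526222 and 7.654 to 8.619 (median 8.264) with vehicle. All SB00526222 arrays lay above all vehicle arrays, as for 10 of the 10784 genes tested (0.0927%). Still, the lowest SB00526222 array was at 8.637 and the highest vehicle array at 8.619, and SB00526222 replicate 3 stood far above the rest. The difference was 0.71 (SE 0.31), and 0.48 without the 2 arrays that stood apart.

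Slc40a1, which encodes the iron exporter ferroportin, read 7.155, 7.495, 8.044 and 7.088 with SB00526222 and 5.980 to 7.052 (median 6.538) with vehicle, again without overlap. The gene was dim, its vehicle median lying below every array median. All SB00526222 arrays lay above their array's median and alone sufficed to bring the gene into the test. The difference was 0.64 (SE 0.32), 0.48 without the 2 arrays that stood apart, 0.34 without vehicle replicate 3 and 0.23 with array weights. C1qb, a complement C1q chain, differed by 0.51 (SE 0.36), and by 0.29 without those arrays. The neutrophil list (8 tested of 12) had a median of 0.32 and -0.05 without vehicle replicate 3. Of its tested members, 6 were above 0, against 6852 of the 10784 genes tested, and 2 below, down to -0.22. The list's highest member Ngp differed by 0.66 (SE 0.93), and Mmp9 by 0.46 (SE 0.37). The neutrophil markers Ly6g and S100a8 lay below the array median on all 10 arrays and S100a9 above it on 4, and the list's summed intensity ran from 1409 to 1978 with vehicle and from 1602 to 2349 with SB00526222. The B-cell list had all 6 tested members above 0, against 6852 of the 10784 genes tested, and a median of 0.25. Its summed intensity ran from 3214 to 5014 with vehicle and from 3549 to 4626 with SB00526222. The monocyte list (6 tested) had a median of 0.14 and the plasma cell list (5 tested) 0.12. The T-cell, NK-cell, peritoneal macrophage, erythroid and platelet lists had 3 tested members each and medians from -0.02 to 0.10.

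**Figure D4:**
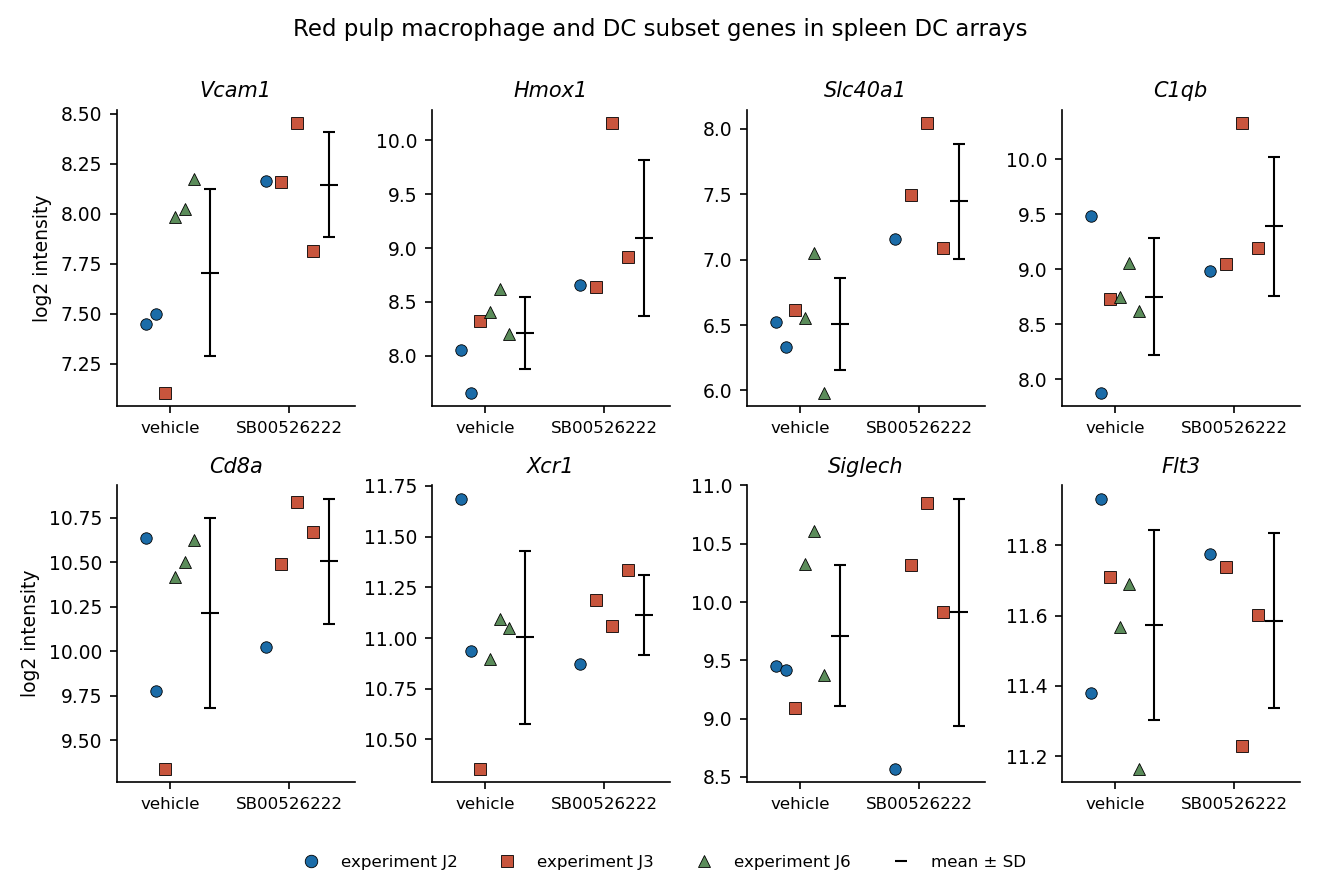
Log2 intensity (y axis) of 4 red pulp macrophage genes (upper row) and 4 DC genes (lower row) on the 6 vehicle and 4 SB00526222 arrays (x axis), each symbol 1 array by experiment, with group mean ± SD to the right. Hmox1 and Slc40a1 do not overlap between groups, and Cd8a, Xcr1 and Siglech lie below the vehicle mean of J2 and above the vehicle array of J3.

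The genes with the largest moderated statistics were of mixed function. Those with higher values were Eif4e1b, a cap-binding protein relative, Wdr83os, Vcam1, Rnasek, Alg3, a mannosyltransferase of protein glycosylation, and Cldn1, a tight junction protein. Eif4e1b read 7.75, 7.32, 7.22 and 7.07 with SB00526222 and 6.80 to 7.11 (median 6.90) with vehicle, with a difference of 0.59 (SE 0.16). Its highest array was the SB00526222 array of J2, and replicate 4 lay within the vehicle range. Eif4e1b was dim, its vehicle median lying below every array median. All SB00526222 arrays lay above their array's median and alone sufficed to bring it into the test. The others differed by 0.73 (SE 0.22) for Wdr83os, 0.49 (SE 0.15) for Rnasek, 0.63 (SE 0.20) for Alg3 and 0.58 (SE 0.20) for Cldn1. With no experiment term these were 0.28, 0.19, 0.31 and 0.28. Without vehicle replicate 3, Wdr83os was 0.42, and without SB00526222 replicate 1, Eif4e1b was 0.34.

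Those with lower values were 5 small nucleolar RNA genes and Erh, a conserved RNA-processing protein. Rnu3a, the U3 small nucleolar RNA, read 7.316, 9.832, 8.846 and 7.572 with SB00526222 and 7.961 to 10.675 (median 8.667) with vehicle. The J3 vehicle array was the highest of the 10, and the groups overlapped. The difference was -1.62 (SE 0.48), and U3 has near-identical copies that share probes, so the locus is uncertain. Snora16a differed by -0.90 (SE 0.25), Snord104 by -0.74 (SE 0.25), Snord49b by -0.82 (SE 0.28), Snora73a by -0.91 (SE 0.33) and Erh by -0.73 (SE 0.22). With no experiment term these were -0.46, -0.43, -0.44, -0.14 and -0.38, and Rnu3a was -0.49. Such RNAs also lie inside introns of host genes, and their array values are open to that overlap.

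Besides Rtp4, the genes whose SB00526222 arrays all lay below the vehicle arrays were Adamdec1, Chrnb2 and Zfp692; these and Usp20 below were named after their values were seen. Adamdec1, a secreted metalloprotease-like protein of macrophages and DC, read 6.742, 7.005, 6.979 and 6.790 with SB00526222 and 7.035 to 7.528 (median 7.187) with vehicle, with a difference of -0.56 (SE 0.23). These values were near the array median, with most SB00526222 arrays below it and the vehicle median above it. Chrnb2 and Zfp692 differed by -0.22 (SE 0.15) and -0.14 (SE 0.13). Of the 10 genes whose SB00526222 arrays all lay above, Usp20, a deubiquitinase, differed by 0.35 (SE 0.14), with arrays at 7.32, 7.20, 7.26 and 7.19 against a vehicle range of 6.79 to 7.16 (median 6.96). Usp20 was also near the array median, with all SB00526222 arrays above it.

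A second compound, SB00526221, had 5 prolonged DC arrays, 2 in J2 (14 treatments, 14 h) and 3 in J6 (15 treatments, 15 h). It was compared directly with SB00526222, which had 14 treatments on all arrays, as the only pair of compounds tested. No gene passed (0%, limma adjusted p of at least 0.9973), and 374 had an unadjusted p under 0.05; without SB00526222 replicate 1 it was 833, with a lowest limma adjusted p of 0.278. The direct test has no array of SB00526221 in J3, where 3 of the 4 SB00526222 arrays lie. The 2 compounds share their vehicle arrays, so their differences from vehicle are given side by side only. For the interferon-stimulated list the median was -0.12 with SB00526222 and -0.28 with SB00526221. Oasl2 was -0.38 and -0.97, and the latter was the 1 gene that passed against vehicle with SB00526221 (limma adjusted p = 0.0363). SB00526222 minus SB00526221 was 0.59 for Oasl2 (95% interval 0.13 to 1.05), 0.18 for Rtp4 (-0.34 to 0.69) and 0.90 for Cd8a (0.29 to 1.51). For Vcam1 it was 0.64 (0.10 to 1.17), and for Slc40a1, which was 0.64 with SB00526222 and 0.92 with SB00526221, -0.28 (-1.03 to 0.48).

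**Figure D5:**
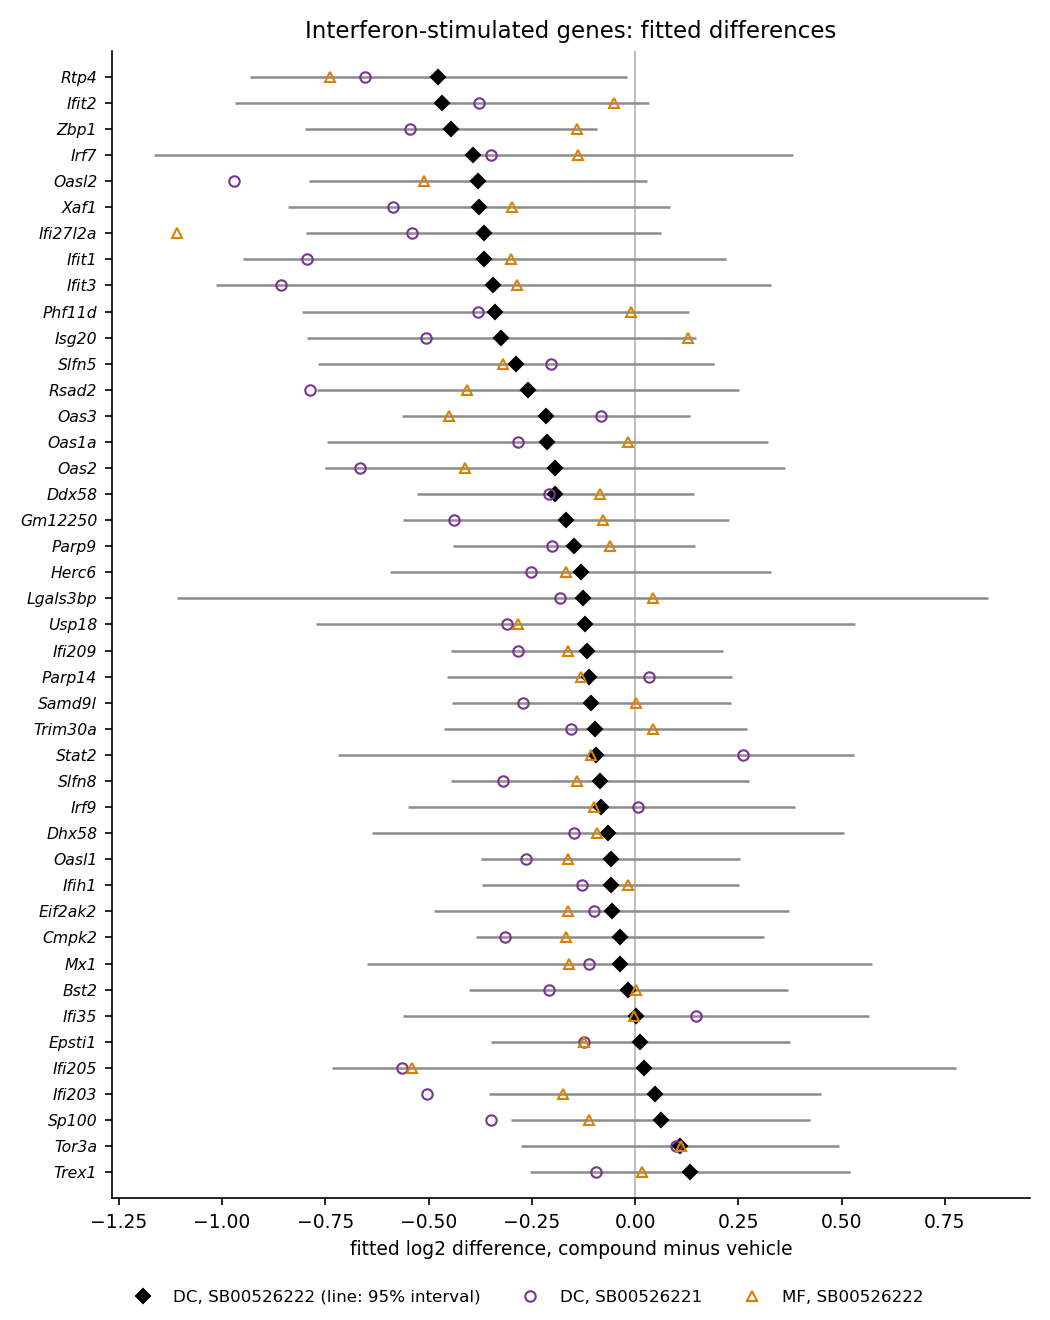
Fitted log2 differences, compound minus vehicle (x axis), of the 43 tested interferon-stimulated genes (y axis, in order of the DC value). Diamonds with 95% intervals are DC with SB00526222, circles DC with SB00526221 (same vehicle arrays) and triangles arrays labelled spleen MF with SB00526222; 36 of the 43 diamonds lie below 0.

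The SB00526222 difference was also set against that in arrays labelled spleen MF (macrophages), with 7 SB00526222 and 8 vehicle arrays. Those 15 arrays carried Gata6 at 10.03 to 11.42, as did the 33 peritoneal MF arrays at 10.36 to 11.46; Gata6 is the factor that defines peritoneal macrophages. Vcam1 and Spic of red pulp macrophages lay below the array median on all 15, so these markers go against the spleen label. The DC arrays had Gata6 of at most 6.48. Some MF arrays of each group came from experiment J8, which held no DC array. Some of these were taken later after the last treatment than any DC array compared here. No gene's difference between DC and MF passed (0%, limma adjusted p of at least 0.9999), and 213 had an unadjusted p under 0.05. With only the J2 and J3 arrays of SB00526222 and vehicle it was 585 (lowest limma adjusted p 0.797), and with no animal block 132.

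Ifi27l2a was the 1 gene that passed in MF (limma adjusted p = 0.0037), at -1.11, with -0.41 in DC in the same fit. The DC value minus the MF value was 0.70 (SE 0.31, 95% interval 0.08 to 1.32), which did not pass. Rtp4 was -0.44 in DC and -0.74 in MF, and its difference of 0.30 had an interval of -0.36 to 0.97. Ifit1 was -0.30 and -0.30. The interferon-stimulated list had a median of -0.14 in MF in this fit, and -0.12 in DC in the main fit of DC arrays alone. For Vcam1, 0.76 in DC and 0.00 in MF, the comparison is with cells in which the gene lay below the array median.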

How the data were processed

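RNA of sorted spleen cells was measured on Affymetrix Mouse Gene 1.0 ST arrays. The authors deposited probe set intensities made with Affymetrix Power Tools and RMA, per the submitters' processing notes, on a linear scale. The versions and the set of arrays normalized as a batch were not given in the sources used here. These intensities were taken to log2. Of 24922 probe sets, 21425 had 1 gene symbol in the platform annotation, 1399 several and 2098 none; 21347 of those with 1 symbol matched RefSeq. The probe set with the highest mean stood for a gene, which left 19752 genes, and the 10784 above their array's median on at least 3 of the 18 prolonged DC arrays were tested with limma 3.58.1 in R 4.3.3 (lmFit, eBayes, two-sided, Benjamini-Hochberg, adjusted p under 0.05) with group and experiment as terms and 11 residual degrees of freedom. The number of arrays limits the precision. Each array is taken as 1 animal, as its title numbers it. For DC against MF, animal was a random block (correlation 0.199; 44 arrays). The script was tested on simulated data.

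Genes named were, with no call, the 6 highest and 6 lowest by moderated statistic, up to 4 members of each list by statistic, members of lists of other cells whose median passed 0.3, and set marker and JAK pathway genes; genes with other reasons are marked. The members and the 33 lists, 10 of them for other cells, were chosen with earlier results of these data known. Alternatives changed the arrays fitted, the experiment term, normalization, filters, probe set rule, eBayes and array weights, and left out each array in turn.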

Additional observations from a re-analysis of the deposited data

Results flagged for a closer look

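In 17 groups of 4 or 6 arrays, 7.66% of those checked, 1 array lay far from the others of its group by Dixon's criterion, which chance meets in about 1 of 20 groups. Of the 17, 11 were SB00526222 replicate 3, which also had high Hspa1a and a low correlation with the other arrays. On it, log2 intensity was 8.08 against 9.41 to 9.58 on the other 3 SB00526222 arrays for Irf7, 11.21 against 11.99 to 12.10 for Sirpa, 7.43 against 8.57 to 8.77 for Zbtb46 and 10.33 against 8.99 to 9.20 for C1qb. List means on it were 8.77 against 9.15 to 9.18 for interferon-stimulated genes, 11.85 against 12.26 to 12.31 for MHC class II genes, 9.75 against 10.07 to 10.12 for cDC2 genes and 9.73 against 10.05 to 10.11 for JAK and STAT components. They were 9.86 against 10.17 to 10.20 for cytokine receptors, 9.11 against 9.42 to 9.48 for pattern recognition genes and 8.03 against 8.25 to 8.28 for glucocorticoid-induced genes.

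Vehicle replicate 6, the other array that stood apart, had Irf7 at 8.58 against 9.56 to 10.03 on the other 5 vehicle arrays. Its mean for genes shared by conventional DC was 10.99 against 11.47 to 11.70, and for clock genes 7.48 against 7.67 to 7.78. Vehicle replicate 1 had Oasl2 at 10.14 against 9.32 to 9.51, and vehicle replicate 3 had Bcl2 at 7.66 against 8.13 to 8.36. SB00526222 replicate 2 had Erh at 9.19 against 8.48 to 8.51 on the other 3.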

How the results depend on the processing

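With SB00526222 against vehicle, 0 genes passed limma's adjusted threshold in the main fit and in all 23 alternatives. The number at an unadjusted p under 0.05 was 93 in the main fit and 536, 186 and 149 without SB00526222 replicate 1, vehicle replicate 1 and vehicle replicate 3. It was 282 with no filter on dim genes, 164 with array weights, 121 after quantile normalization, 49 with no experiment term and 47 with experiment as a random block. Without the 2 arrays that stood apart, a setting chosen after seeing the data, 99 genes had groups that did not overlap, against 14 with them, and the smaller groups make this easier to reach. The interferon-stimulated list median lay between -0.21 and -0.06 and the red pulp macrophage median between 0.23 and 0.40 over the 23 alternatives. Of the 33 list medians, 26 took the other sign under at least 1 alternative.

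Of 78 genes named from the tested table, 51 kept their sign in every alternative, and the other 27 took the opposite sign in at least 1. For those signs the cause was not tested. Some alternatives could not change a gene's estimate, so its sign was fixed under them. These were the fit with all spleen DC arrays, the changed filters, all probe sets with 1 symbol and the changed eBayes settings. With no experiment term the differences with the opposite sign were Cxcl9 -0.037, Jak2 -0.0056, Socs1 0.045, Pim1 0.061, Flt3 0.012, Ccr7 -0.12, Il13ra1 -0.037, Psmb9 0.056, Ccl3 0.13. With experiment as a random block they were Cxcl9 -0.0060, Jak2 -0.0085, Socs1 0.037, Pim1 0.041, Flt3 0.0061, Ccr7 -0.079, Il13ra1 -0.0059, Psmb9 0.032, Ccl3 0.088. With only SB00526222 and vehicle arrays, of all experiments or of J2 and J3, they were Jak2 -0.0067, Zbtb46 -0.021. After quantile normalization they were Jak2 -0.039, Zbtb46 -0.017, H2-Aa -0.017. With array weights they were Jak2 -0.020, Ccr7 -0.011, and without the 2 arrays that stood apart Flt3 0.033, Sirpa 0.057. Without those 2 arrays the other differences given only with them above, and moved by over 1.5 times, were Gbp9 -0.17, Ciita 0.38, Jak1 -0.014, Jak2 0.082, Socs1 -0.10, Socs2 -0.24, H2-Aa 0.11, Ccr7 0.067, Mki67 -0.10, Tnfsf9 0.20, Rrm2 -0.14, Slfn5 -0.16, Oas1a -0.076. Over the fits that each left out 1 array, the ranges that crossed 0 were Cd8a -0.19 to 1.32, Ciita -0.24 to 0.74, Csf2rb -0.12 to 0.49, Cxcl9 -0.53 to 0.97, Flt3 -0.19 to 0.14, Gbp9 -0.60 to 0.039, H2-Aa -0.12 to 0.24, Il13ra1 -0.071 to 0.61, Itgax -0.044 to 0.44, Jak1 -0.26 to 0.14, Jak2 -0.12 to 0.12, Klra17 -0.22 to 1.68, Ngp -0.35 to 1.65, Nr1d1 -0.42 to 0.11, Oas1a -0.63 to 0.21, Pim1 -0.45 to 0.13, Siglech -0.81 to 1.27, Sirpa -0.43 to 0.33, Socs2 -0.19 to 0.12, Socs3 -0.035 to 0.11, Tyk2 -0.059 to 0.39, Xcr1 -0.47 to 0.84, Zbtb46 -0.20 to 0.30. No paired analysis was possible because, within DC, the replicate numbers follow accession order and the groups share no animal; DC and MF arrays of 1 animal were blocked on it. The arrays give no counts, and their number, with 1 SB00526222 array in J2 and 1 vehicle array in J3, limits what can be detected.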
